A study of Mus musculus with 6 samples.

Results

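The complement system genes examined here are 36 genes that encode the components, regulators and receptors of complement, out of 37991 genes counted in mouse liver. They were chosen by name, as the rows whose Ensembl mouse gene ID maps to the listed symbols, and all 36 were found in the count tables. Sequencing libraries of polyadenylated RNA came from 6 livers of FVB mice aged 84 days, 3 of the genotype Ing5 +/+ (WT) and 3 of the genotype Ing5 MommeD48/+ (Het), which carry 1 mutant allele of the chromatin regulator gene Ing5. The MommeD48 allele comes from a screen for modifiers of transgene silencing, and the comparison asked what heterozygosity for it does to liver transcripts. No treatment is given in the labels, and both groups share strain, tissue and age. The labels describe neither the kind of mutation in this allele nor whether the numbered livers are from different mice. The p-values thus speak only of the spread between these libraries, which may be technical.

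Complement is a cascade of plasma proteins that marks microbes and damaged cells for removal. The classical pathway starts when C1q binds an antibody or another ligand, the lectin pathway when mannose-binding lectins, ficolins or collectins bind sugars, and the alternative pathway runs on C3 itself. All 3 routes cleave C3 and then C5, which releases the anaphylatoxin peptides and starts the membrane attack complex. Hepatocytes make most of the plasma components and several of them belong to the acute-phase response, the shift in liver secretion during inflammation, whereas the C1q chains and properdin come mainly from macrophages and other myeloid cells. FVB mice are known to lack functional C5 because of an inherited mutation in Hc, so these livers cannot be taken as a model of the complete terminal pathway.

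Upstream DNA is shown for 5 of these genes to let the data be read beside it: C3, C9 and Cpn2, hepatocyte genes whose windows lie outside all annotated genes and hold a motif match, Vtn, whose level varied little between livers, and C1qb, a macrophage-derived member. Each window is the 250 bases before the start site in the RefSeq annotation of GRCm38.p6, while the submitters' processing notes name mm9, so these coordinates are not those of the counting. RefSeq start sites were matched for 27 of the 36 genes in 29 windows, and 11 of these windows lay outside all annotated genes. The order below is 5′ to 3′ on the gene's own strand, and capitals mark matches to the motifs named after the sequences. C3 lies at chr17:57228137-57228386, minus strand, C9 at chr15:6445096-6445345, plus strand, Cpn2 at chr16:30267533-30267782, minus strand, Vtn at chr11:78498870-78499119, plus strand and C1qb at chr4:136886201-136886450, minus strand.
C3: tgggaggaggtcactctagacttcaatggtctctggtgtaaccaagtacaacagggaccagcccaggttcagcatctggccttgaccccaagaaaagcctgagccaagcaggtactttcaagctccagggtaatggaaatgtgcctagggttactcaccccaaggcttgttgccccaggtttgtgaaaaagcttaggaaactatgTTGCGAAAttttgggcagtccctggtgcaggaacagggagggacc
C9: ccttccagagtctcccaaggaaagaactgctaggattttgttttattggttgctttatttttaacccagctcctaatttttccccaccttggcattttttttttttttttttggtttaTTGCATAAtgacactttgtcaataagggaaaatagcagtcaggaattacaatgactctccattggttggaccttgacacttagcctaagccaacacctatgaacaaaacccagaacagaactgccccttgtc
Cpn2: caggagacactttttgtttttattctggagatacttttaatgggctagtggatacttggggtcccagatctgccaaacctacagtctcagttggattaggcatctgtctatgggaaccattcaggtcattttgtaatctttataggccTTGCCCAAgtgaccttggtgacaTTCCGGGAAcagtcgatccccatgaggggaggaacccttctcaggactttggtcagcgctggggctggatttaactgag
Vtn: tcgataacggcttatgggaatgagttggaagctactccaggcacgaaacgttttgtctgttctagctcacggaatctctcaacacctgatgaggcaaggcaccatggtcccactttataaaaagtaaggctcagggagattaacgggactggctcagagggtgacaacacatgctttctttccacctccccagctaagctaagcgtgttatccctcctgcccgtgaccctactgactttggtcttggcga
C1qb: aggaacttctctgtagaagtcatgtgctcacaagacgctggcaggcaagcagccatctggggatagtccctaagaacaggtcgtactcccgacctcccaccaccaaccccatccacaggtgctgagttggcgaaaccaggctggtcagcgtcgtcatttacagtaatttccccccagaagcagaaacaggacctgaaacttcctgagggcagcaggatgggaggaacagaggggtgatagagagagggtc

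Both strands of each window were searched for 5 motifs, and matches could overlap. Matches to TTGCNNAA, letters typical of C/EBP sites, were found in 4 of 29 windows (13.8%), against 9.56% of 32851 windows of the same length over all RefSeq start sites. The genes were C1s1, C3, C9 and Cpn2, among them C3 from base -45 to -38 and C9 from -132 to -125, where -1 is the last base before the start. Matches to TTCNNNGAA, the letters of STAT sites, were also found in 4 (13.8%, against 7.02%), at Colec11, Masp2, C8a and Cpn2. GAGGAAGT (PU.1) and the NF-kappaB consensus each matched 1 window, that of C1qc (3.45%, against 2.44% and 7.25% of all), and CAAAGTNCA (HNF4) matched 0 (against 1.19%). In the printed windows of Vtn and C1qb none of the 5 was found. These are matches of letters in a short window and show no binding.

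Total counts per library ranged from 19840541 to 22041117, and no library was a copy of another (chi-square of each pair of libraries, divided by its degrees of freedom, 10.2 to 79.9). Complement transcripts took 1.70% to 2.83% of all counts. Levels are in CPM, counts per 1000000 of the normalised library size. A transcript with a count of 0 could still hold 3 counts, or 0.136 to 0.154 CPM, by counting error alone. Ing5 itself had 8.77, 10.4 and 9.82 CPM among WT livers and 9.23, 9.99 and 8.79 CPM among Het livers, which overlapped (log2 difference -0.047, SE 0.11, exact two-sided permutation p = 0.8, where 0.1 is the smallest possible with 3 against 3). The hepatocyte markers were abundant in every liver, with summed levels of 94033 to 110020.0 CPM in WT livers against 97227 to 115847 CPM in Het livers. The library of WT replicate 3 stood apart: the deviation of a gene from its mean over the 6 livers was related to transcript length with Spearman's rho of -0.36 over 11851 genes, against -0.17 to 0.26 in the other libraries, and mitochondrial transcripts took 13.4% of its counts against 10.8% to 11.6%. This rho is across genes, which are not independent replicates. In that library genes with transcripts under 2 kb had a median deviation of 0.091 (log2) and those from 4 kb of -0.075. WT replicate 2 was highest for most acute-phase transcripts, as described below, and WT replicate 1 and Het replicate 1 were also above the mean in their median. The main values that WT replicates 2 and 3 moved are given with and without these 2 libraries.

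Judged per length, the central component C3 had the highest mean level of the complement transcripts, but not the highest level in every liver. Its mean level was 1379 ± 367 CPM per kb of its longest protein-coding transcript (SD over the 6 livers). Vtn followed with 1270.2 ± 103 CPM per kb, a difference within the spread of C3 between livers, and then C9 with 769 ± 148, Clu with 705 ± 124 and Serping1 with 552 ± 75.2. Neighbours in this order, such as C9 and Clu, overlapped between livers. Vtn was above C3 in WT replicate 3 (1150.3 against 1019 CPM per kb), Het replicate 2 (1254 against 1217) and Het replicate 3 (1177 against 1113). At the other end were the receptors C5ar1 and C3ar1, with 0.713 ± 0.142 and 0.362 ± 0.0816 CPM per kb, and Cd46 with 0.0982 ± 0.0384. The order from plasma proteins through the C1q chains (16.3 to 23.5 CPM per kb) to receptors is visible in the plot of levels by liver, where values are not divided by length.

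**Figure D1:**
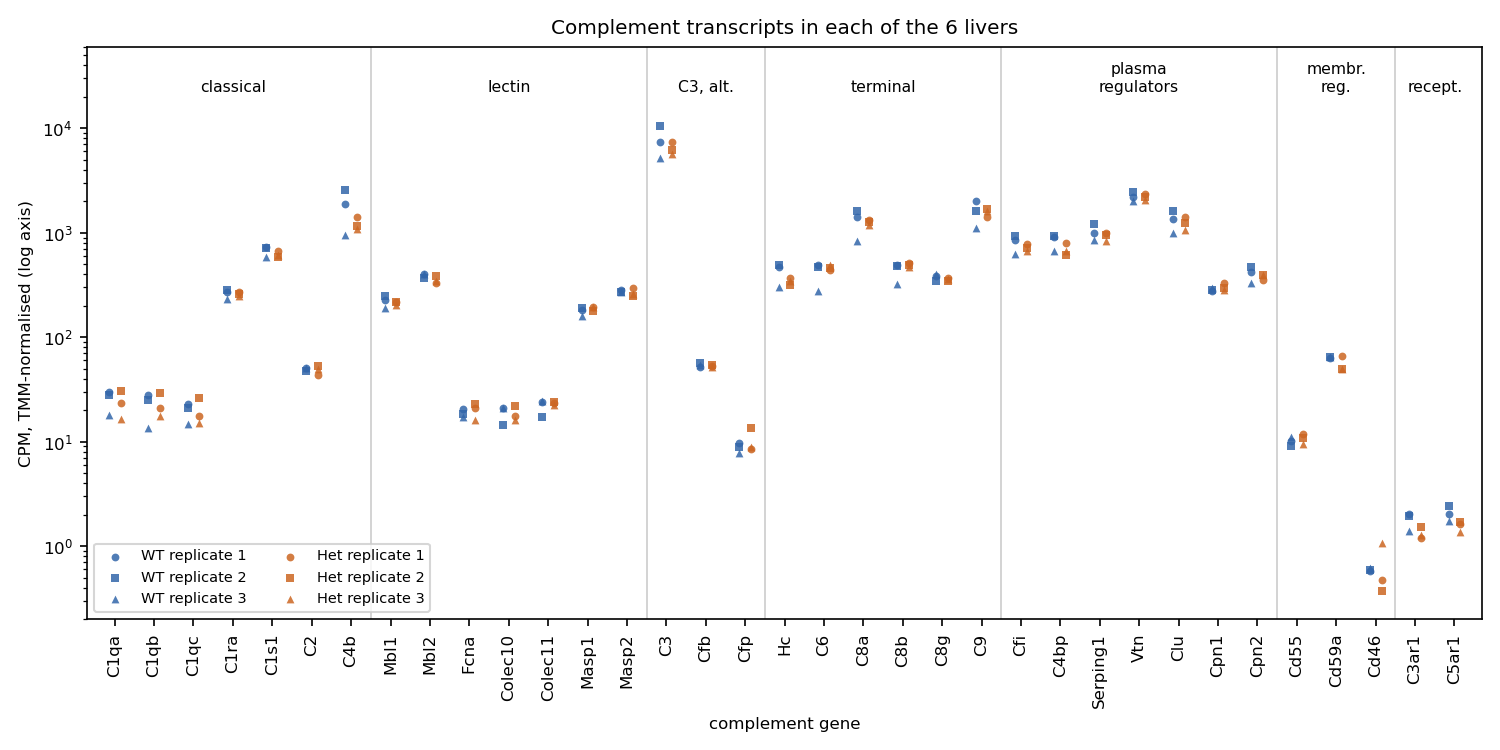
Level of each of the 35 tested complement genes in each liver, in TMM-normalised CPM on a log axis; blue marks are the 3 WT and orange marks the 3 Het livers, and the shape gives the replicate number. C3 lies at the top with 5233 to 10479 CPM, Cd46, C3ar1 and C5ar1 lie under 3 CPM, and the WT and Het marks overlap for every gene except C5ar1.

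No complement gene passed the test for a difference between genotypes. Of the 36 genes 35 passed the low-count filter, and of these 0 reached the threshold of 0.05 for the edgeR quasi-likelihood p, adjusted by Benjamini and Hochberg's method over 12631 genes (0% of all genes reached it, and the smallest adjusted p of a member was 0.99976). At an unadjusted p under 0.05 the count was also 0, against 4.33% of all genes, and DESeq2 and limma-voom likewise called 0 members. Het livers had lower values for 23 and higher values for 12 of the 35, where 49.7% of all genes were lower. This balance rested on single livers: 15 of 35 were lower once WT replicate 2 was left out (49.0% of all genes) and 26 of 35 once WT replicate 3 was left out (49.2%), and leaving out any 1 Het liver gave 19 to 27. The median log2 fold change (Het over WT) of the 35 was -0.034, against 0.00088 over all genes tested, and it was 0.018 with WT replicate 2 left out and -0.16 with WT replicate 3 left out. The groups did not overlap for 1 of 35 members, C5ar1, while this was so for 8.99% of all genes, and with Het below WT for 4.28%. Leaving out WT replicate 3 gave 7 of 35 members with an unadjusted p under 0.05, all with lower values in Het livers (C4b, C3, Hc, C8a, Cfi, C4bp and C3ar1), against 10.8% of all genes in either direction and 5.44% in that direction. Leaving out Het replicate 1 gave 2, C4bp and Cd59a, also lower, against 7.33% and 3.92% of all genes. Without the low-count filter 1 member, Cd59a, was under 0.05, against 3.67% of all genes. None of these passed after adjustment. For 33 of 35 members the 95% interval excluded changes beyond 2-fold, the exceptions being C4b and Cd46, and for 23 of 35 it excluded changes beyond 1.5-fold. Of all 12631 genes tested, 11373 met the first limit and 71.1% the second.

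**Figure D2:**
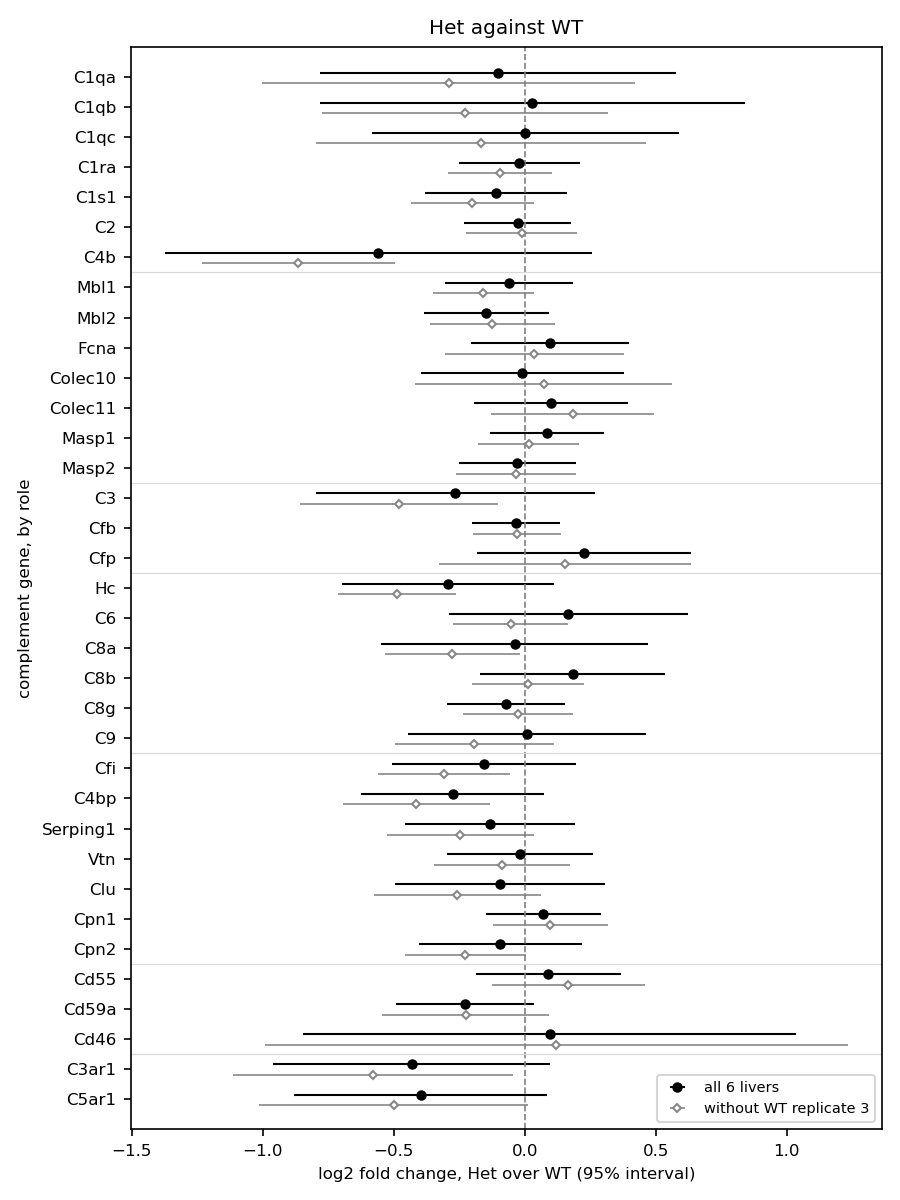
Log2 fold change of Het over WT for each tested complement gene with its 95% interval; filled circles use all 6 livers and open diamonds leave out WT replicate 3. With all 6 livers every interval includes 0, and without WT replicate 3 the intervals of C4b, C3, Hc, C8a, Cfi, C4bp and C3ar1 lie below 0 before adjustment for multiple tests.

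What varied was the level between livers, and for most members more so between WT livers. The highest level was over 1.5 times the lowest for 18 of 35 members (51.4%), against 32.4% of all genes tested. The SD of log2 CPM had a median of 0.23 among the WT livers and of 0.13 among the Het livers, against 0.14 and 0.12 over all genes tested. This SD was larger among WT than among Het livers for 24 of 35 members (68.6%), against 55.9% of all genes. Cd59a and Masp2 were among the members that varied more between Het livers. WT replicate 3 held the lowest level of 18 members (51.4%, against 21.6% of all genes) and WT replicate 2 the highest level of 14 (40.0%, against 17.6%). Among the 21 members at 100 CPM or more, WT replicate 3 was lowest for 15 (71.4%, against 22.2% of 1340 genes at that level) and WT replicate 2 highest for 12 (57.1%, against 16.6%). The length trend of WT replicate 3 stands beside these values. In that library the members from 4 kb had a median deviation there of -0.22, those from 2 to 4 kb of -0.15 and those under 2 kb of -0.17, where all genes had -0.075, 0.0083 and 0.091. Among the 21 members at 100 CPM or more, those medians were -0.33, -0.28 and -0.14. Spearman's rho of the deviation there with length was -0.48 over these 21 members, against -0.47 over 1321 genes at that level. Over all 35 members tested it was -0.066, against -0.36 over 11851 genes. The part of the length trend in the low levels was not tested. These shares describe the libraries and were not tested against chance.

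**Figure D3:**
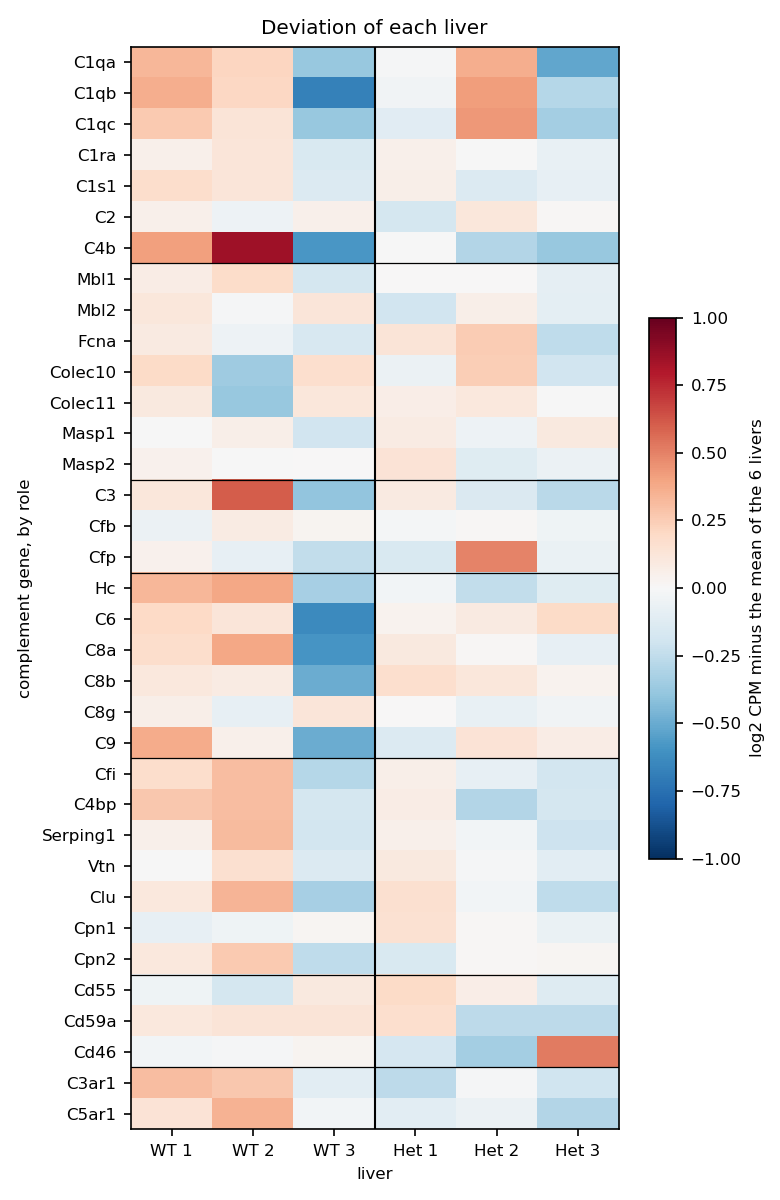
Deviation of each liver from the mean of the 6 livers, in log2 CPM, for each tested complement gene (rows, by role) and liver (columns, WT left of the line and Het right of it); red is above and blue below the mean. C4b and C3 are reddest in WT replicate 2, most terminal genes are blue in WT replicate 3, and the 3 C1q rows are red in WT 1, WT 2 and Het 2.

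The central component C3, whose cleavage all pathways share, had 7471, 10479 and 5233 CPM in WT livers against 7329, 6249.7 and 5719 CPM in Het livers. The highest and the lowest liver were thus both WT, and the Het livers lay between them. C3 alone made up 29.5% to 37.0% of the summed complement CPM of a liver. Its log2 fold change was -0.26 (SE 0.23, 95% interval -0.80 to 0.27) with all livers, -0.48 without WT replicate 3 (unadjusted p = 0.0186, adjusted p = 0.358 in edgeR) and 0.018 without WT replicate 2. Factor B, the protease of the alternative pathway convertase encoded by Cfb, had 51.4, 56.8 and 54.7 CPM in WT livers against 53.0, 54.2 and 51.9 CPM in Het livers. It had the narrowest range of all members tested, with a highest level 1.11 times the lowest, and a log2 fold change of -0.034 (SE 0.075). Properdin, the stabiliser of that convertase encoded by Cfp, had 9.68, 8.85 and 7.87 CPM in WT livers against 8.42, 13.5 and 8.98 CPM in Het livers, where Het replicate 2 stood above the other 5. Cfd, the gene of factor D, which fat tissue makes in quantity, had counts of 0, 3 and 0 in WT and 1, 0 and 0 in Het livers, at or under the floor in every library, so no fold change is given. The adipocyte genes Adipoq, Plin1, Retn and Lep were likewise at no more than 0.0963 CPM in any liver. Adrb3, from the same list of adipocyte markers, was above that level in every liver and is given further below.

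Classical pathway genes fell into groups by how they varied between livers. C4b, which encodes complement C4, the partner of C2 in the C3 convertase, had 1876, 2554 and 948 CPM in WT livers against 1411, 1155 and 1086 CPM in Het livers. It had the widest range among plasma components, 2.70 times from lowest to highest liver, and its largest and smallest values were both WT. Het over WT came to -0.56 on the log2 scale (SE 0.34, 95% interval -1.37 to 0.26). Without WT replicate 3 it was -0.86 (SE 0.16, adjusted p = 0.123 in edgeR), and without WT replicate 2 it was -0.21 (SE 0.29), so its size depended on which WT liver was included. C2, its neighbour in the convertase, had 50.6, 46.9 and 50.4 CPM in WT livers against 43.2, 52.9 and 49.1 CPM in Het livers, a range of 1.22 times. The proteases of the C1 complex were also steady: C1ra had 269, 283 and 234 CPM in WT livers against 269, 259 and 247 CPM in Het livers, and C1s1 733, 708 and 590.0 CPM in WT livers against 676, 591 and 615 CPM in Het livers. Of the 50-base windows of the longest C4b transcript 35.2% occur unchanged in C4a, of C1ra 48.0% in C1rb and of C1s1 24.3% in C1s2 (GENCODE M21 transcripts), so these counts can be off where the counting divided reads between the copies. C4a had 419, 345 and 333 CPM in WT livers against 377, 236 and 299 CPM in Het livers, an order of livers other than that of C4b.

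The 3 chains of C1q, which together form the recognition molecule of the classical pathway, followed each other from liver to liver. C1qa had 30.1, 27.8 and 18.2 CPM in WT livers against 23.6, 30.7 and 16.5 CPM in Het livers. C1qb had 28.0, 25.1 and 13.4 CPM in WT livers against 21.0, 29.1 and 17.7 CPM in Het livers. C1qc had 23.1, 21.0 and 14.7 CPM in WT livers against 17.7, 26.1 and 15.1 CPM in Het livers. All 3 were highest in Het replicate 2, followed by WT replicates 1 and 2, and low in WT replicate 3 and Het replicate 3, so each genotype held high and low livers. The ratio of C1qa to C1qc ran from 1.09 to 1.34 and that of C1qa to C1qb from 0.934 to 1.36, the latter lowest in Het replicate 3 and highest in WT replicate 3, while the sum of the 3 ranged from 46.2 to 86.0 CPM. Their log2 fold changes were -0.10 (SE 0.28), 0.029 (SE 0.33) and 0.0028 (SE 0.25), and the 95% interval of C1qb reached from -0.78 to 0.84. Markers of Kupffer cells, the resident macrophages of the liver, mostly moved with them. Summed over 12 of 12 genes, they had 666, 654 and 487 CPM in WT livers against 573, 691 and 516 CPM in Het livers. Of the 12, 11 were lowest in WT replicate 3. The most abundant of them were the iron exporter gene Slc40a1, at 322.9 to 393 CPM and highest in Het replicate 2, and Mpeg1, which encodes a pore protein of macrophages, with 90.4, 103 and 38.2 CPM for WT livers against 54.4, 52.5 and 39.7 CPM for Het livers. Mpeg1 thus was not high in Het replicate 2. Of the 12 markers 9 were highest in that liver, where 17.7% of all genes tested were. Cd5l and Mpeg1 were highest in WT replicate 2, and Cd163 in WT replicate 1. The next genes were chosen after their values were seen. Clec4f, a Kupffer cell lectin, had 70.7, 68.2 and 45.5 CPM in WT livers against 60.7, 77.8 and 49.3 CPM in Het livers. Vsig4, the complement receptor of Kupffer cells, had 21.3, 19.4 and 12.2 CPM in WT livers against 18.8, 24.8 and 13.8 CPM in Het livers. The part of these cells in the C1q levels was not tested, and in whole liver fewer cells of a type and less RNA per cell cannot be told apart. Neutrophil and lymphocyte markers were scarce, summing to 0.566 to 2.07 CPM and 2.77 to 6.21 CPM over all 6 livers, with Ly6g at 0 in each.

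**Figure D4:**
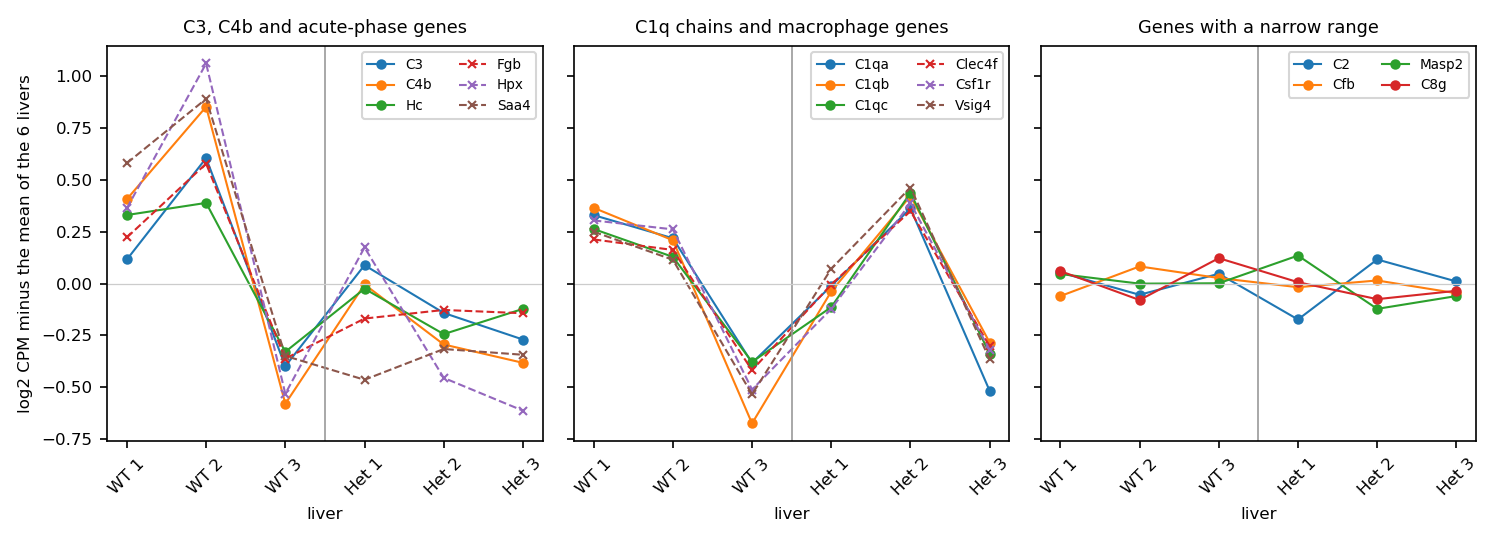
Profiles across the 6 livers, in log2 CPM minus the mean of the 6 livers; solid lines with circles are complement members, and dashed lines with crosses are genes outside the 36, chosen after their values were seen. C3, C4b and Hc peak in WT replicate 2 with Fgb, Hpx and Saa4 (left), the C1q chains peak in Het replicate 2 with Clec4f, Csf1r and Vsig4 (middle), and C2, Cfb, Masp2 and C8g stay within 0.2 of the mean (right).

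Acute-phase genes outside complement varied over the same livers as C3 and C4b. Their summed level, over 22 of 22 genes, was 30713, 48663 and 17241 CPM in WT livers against 27649.9, 20392 and 18454 CPM in Het livers, and 20 of the 22 were highest in WT replicate 2. Fgb, a fibrinogen chain, had 4565, 5839.7 and 3046 CPM in WT livers against 3482, 3583 and 3544 CPM in Het livers. The haem carrier Hpx had 4100.4, 6647 and 2207 CPM in WT livers against 3597, 2327 and 2086 CPM in Het livers. In this list 0 of 22 passed the edgeR test over all genes and 1 had an unadjusted p under 0.05 (4.33% of all genes did), Saa4, a serum amyloid A gene, with 835, 1034 and 438 CPM in WT livers against 405, 449 and 440.0 CPM in Het livers. The list's median log2 difference was -0.58, and 21 of 22 had lower values in Het livers, against 49.7% of all genes. With WT replicate 2 left out the median was -0.094 and 16 of 22 were lower, in a fit that still held WT replicate 1 and Het replicate 1. The part of the acute-phase state in the complement levels was not tested.

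The median ratio of the highest to the lowest liver was 1.29 over the lectin pathway genes, against 1.33 over all genes tested. It was 1.78 for classical genes and 1.71 for C3 and the alternative pathway. Those medians are the values of C1qc and Cfp. In the same routes C1ra, C1s1, C2 and Cfb had narrower ranges, of 1.21, 1.24, 1.22 and 1.11 times, so the routes are not ranked. The lectin pathway had a summed level of 1089.6 to 1160 CPM in WT livers against 1062 to 1101 CPM in Het livers. The mannose-binding lectins were its most abundant recognition molecules: Mbl2 had 404, 369 and 404 CPM in WT livers against 327, 389 and 348 CPM in Het livers, and Mbl1 227, 246 and 191 CPM in WT livers against 217, 217 and 203 CPM in Het livers. Mbl2 had the lowest unadjusted p of the pathway at 0.203 (log2 fold change -0.15, SE 0.11). The ratio of Mbl2 to Mbl1 ran up to 2.12, highest in WT replicate 3. The ficolin gene Fcna, expressed by macrophages, had 20.5, 18.5 and 17.1 CPM in WT livers against 21.0, 23.0 and 16.0 CPM in Het livers, highest in Het replicate 2 as the C1q chains were. The collectins Colec10 and Colec11, which act with the same proteases, had 21.0, 14.3 and 20.8 CPM and 24.0, 17.1 and 24.2 CPM in WT livers, and 17.7, 21.9 and 16.1 CPM and 23.5, 24.2 and 22.3 CPM in Het livers. Both were lowest in WT replicate 2, where C3 and C4b were highest. The genes Masp1 and Masp2, whose protease products act once a lectin has bound, had narrow ranges. Masp1 had 182, 191 and 160.4 CPM in WT livers against 194, 176 and 196 CPM in Het livers. Masp2 had 281, 272 and 272 CPM in WT livers against 299, 249.99 and 261 CPM in Het livers. None of the 7 genes had a highest level above 1.53 times its lowest.

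The terminal genes, whose products assemble the membrane attack complex, split by their level in WT replicate 3. Hc, the gene of C5, was transcribed in all livers, at 472, 492 and 299 CPM in WT livers against 369, 317 and 345 CPM in Het livers. Its log2 fold change was -0.29 (SE 0.18, 95% interval -0.70 to 0.11), and without WT replicate 3 it was -0.49 (SE 0.10, adjusted p = 0.144 in edgeR) and without WT replicate 2 it was -0.17. C6, which joins C5 as the complex forms, had 495, 469 and 277 CPM in WT livers against 442, 460.0 and 492 CPM in Het livers: 5 livers lay close together and WT replicate 3 far below them. C8a, which encodes the alpha chain of C8, had 1408, 1631 and 827 CPM in WT livers against 1335, 1256 and 1174 CPM in Het livers. The beta chain gene C8b had 489, 482 and 322 CPM in WT livers against 511, 494 and 466 CPM in Het livers. The gamma chain gene C8g did not share this pattern, with 383, 348 and 400.0 CPM in WT livers against 369, 349 and 359 CPM in Het livers, highest in WT replicate 3. The ratio of C8a to C8g was accordingly 2.07 there and 3.27 to 4.69 in the other livers. C9, the pore-forming component, had 2002, 1607 and 1099 CPM in WT livers against 1407, 1702 and 1631 CPM in Het livers. Transcripts have 5445 bases for Hc, 2876 for C6, 3617 for C8a, 2239 for C8b, 1150 for C8g and 2048 for C9. In that order their deviations in WT replicate 3 were -0.33, -0.64, -0.59, -0.50, 0.12 and -0.49 (log2). The part of transcript length in these levels was not tested. Het livers were close to each other in all 6 terminal genes, with a median SD of 0.086 (log2) against 0.42 in WT livers. Log2 fold changes were 0.17 (SE 0.20) for C6, -0.038 (SE 0.22) for C8a, 0.18 (SE 0.16) for C8b, -0.071 (SE 0.10) for C8g and 0.0094 (SE 0.20) for C9. Without WT replicate 3 the values for C6, C8a and C9 were -0.054, -0.28 and -0.19, and that for C8b was 0.013.

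Plasma regulators restrain the cascade, and 6 of the 7 had lower values in Het livers, none past the test, where 49.7% of all genes were lower. With WT replicate 2 left out only C4bp and Cfi, 2 of the 7, were lower. C4bp, the cofactor for inactivation of C4b protein, had 911, 934 and 670.3 CPM in WT livers against 795, 616 and 668 CPM in Het livers. Its log2 fold change was -0.28 (SE 0.16, unadjusted p = 0.108), and it was -0.41 without WT replicate 3 and -0.39 without Het replicate 1 (adjusted p = 0.289 and 0.665 in edgeR). Without WT replicate 2 it was -0.19. The protease gene Cfi, which cleaves C3b and C4b proteins, had 853, 935 and 621 CPM in WT livers against 786, 715 and 665 CPM in Het livers. For Cfi the log2 fold change was -0.15 (SE 0.16), -0.31 once WT replicate 3 was left out and -0.029 once WT replicate 2 was left out. The C1 inhibitor gene Serping1 had 1004, 1206 and 852 CPM in WT livers against 1003, 953 and 841 CPM in Het livers. Clu and Vtn, whose products clusterin and vitronectin block the membrane attack complex in plasma, had 1352, 1598 and 1003 CPM and 2207, 2470.5 and 2006 CPM in WT livers. In Het livers they had 1410.3, 1234 and 1059 CPM and 2369, 2188 and 2052 CPM. All 5 of these genes were highest in WT replicate 2. The subunits of carboxypeptidase N, which inactivates anaphylatoxins, differed from each other: the catalytic subunit gene Cpn1 had 278, 286 and 298 CPM in WT livers against 327, 297 and 281 CPM in Het livers. Its partner Cpn2 had 420.2, 468 and 327 CPM in WT livers against 351, 392 and 396 CPM in Het livers.

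Membrane regulators protect host cells from their own complement. Cd59a, which blocks assembly of the pore, had 63.7, 65.0 and 64.8 CPM in WT livers against 66.5, 49.3 and 49.3 CPM in Het livers. The 3 WT livers lay within 1.02 times of each other, and Het replicate 1 lay above them while the other Het livers lay below. It had the smallest p of all members (unadjusted p = 0.0812), with a log2 fold change of -0.23 (SE 0.12). Without Het replicate 1 the log2 fold change was -0.39 (SE 0.081, adjusted p = 0.187 in edgeR). Only 3.98% of its 50-base windows occur in the paralogue Cd59b. Cd55, which speeds decay of the convertases, had 10.1, 9.13 and 11.2 CPM in WT livers against 11.9, 10.9 and 9.47 CPM in Het livers. Cd46, a cofactor for cleavage of C3b that mice express mainly in testis, had 12, 13 and 12 counts in WT livers and 10, 8 and 22 counts in Het livers, or 0.368 to 1.07 CPM, so its fold change is poorly measured (log2 0.095, SE 0.42).

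The anaphylatoxin receptors were scarce, with 25 to 53 counts per library. C5ar1, the receptor for C5a on myeloid cells, had 2.02, 2.41 and 1.75 CPM in WT livers against 1.63, 1.70 and 1.37 CPM in Het livers. Each Het liver lay below each WT liver in CPM, by a small margin. The counts before scaling overlapped, at 42, 53 and 34 in WT livers and 34, 37 and 28 in Het livers. C3ar1, the receptor for C3a, had 2.02, 1.95 and 1.39 CPM in WT livers against 1.20, 1.52 and 1.27 CPM in Het livers, which overlapped. Log2 fold changes were -0.40 (SE 0.22, 95% interval -0.88 to 0.09) for C5ar1 and -0.43 (SE 0.24, 95% interval -0.96 to 0.10) for C3ar1, with unadjusted p of 0.097 and 0.0994. That of C3ar1 was -0.58 without WT replicate 3.

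Other genes of the system were read from a list of 24, of which 23 were in the tables and 18 passed the low-count filter. In this list 0 of 18 passed the edgeR test over all genes and 0 had an unadjusted p under 0.05, against 4.33% of all genes. Het livers had lower values for 12 and higher values for 6, where 49.7% of all genes were lower. The median log2 fold change was -0.086, against 0.00088 over all genes tested. Without WT replicate 2, 11 of 18 were lower (49.0% of all genes, list median -0.032). Without WT replicate 3, 13 of 18 were lower (49.2% of all genes, list median -0.16). Cpb2, a plasma carboxypeptidase that also inactivates anaphylatoxins, had 410.3, 455 and 295 CPM in WT livers against 398, 318 and 310.3 CPM in Het livers. The terminal component C7 was scarce in liver, with 11 to 22 counts per library, or 0.530 to 1.03 CPM, and Fcnb had 0 counts in all libraries. Of 13 genes that neighbour C4b, C2 and Cfb, 12 were tested and 0 passed. Among them Cyp21a2-ps, a pseudogene beside C4b with a functional copy, had 2.55, 3.41 and 1.70 CPM in WT livers against 1.10, 0.690 and 0.586 CPM in Het livers (Het over WT on the log2 scale -1.69, SE 0.33, adjusted p = 0.599 in edgeR), and its reads can be shared with that copy. The most abundant of these neighbours were the histone methyltransferase gene Ehmt2 and the helicase gene Skiv2l, the latter with 53.5, 56.1 and 58.8 CPM in WT livers against 59.9, 61.5 and 63.5 CPM in Het livers. For C4b itself the genotypes overlapped.

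Genes of interleukin 6, interferon and liver transcription control gave 0 of 16 passed, with a median log2 fold change of -0.025. The most abundant were Hnf4a, with 630.2, 666 and 457 CPM in WT livers against 532, 608 and 564 CPM in Het livers, and Jak1, a kinase of cytokine receptors, with 113, 119 and 102 CPM in WT livers against 104, 114 and 114 CPM in Het livers. Both were highest in WT replicate 2 and lowest in WT replicate 3, with a range of 1.46 times for Hnf4a and 1.16 times for Jak1. Markers of sinusoidal endothelium summed to 181 to 233 CPM in WT livers against 185 to 220.4 CPM in Het livers, of stellate cells and fibroblasts to 208 to 313 and 276 to 344 CPM, of cholangiocytes to 30.6 to 34.1 and 27.9 to 30.3 CPM and of adipocytes to 1.35 to 2.78 and 3.78 to 4.54 CPM. The adipocyte sum was almost entirely Adrb3, the beta 3 adrenergic receptor gene, with 1.20, 2.18 and 2.62 CPM in WT livers against 3.73, 4.28 and 4.49 CPM in Het livers (adjusted p = 0.989 in edgeR). In these cell type lists 0 genes passed the test over all genes, and those with an unadjusted p under 0.05 were Adrb3, the stellate cell gene Reln and the cholangiocyte gene Spp1.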

How the data were processed

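Poly(A) RNA libraries were made with the Illumina TruSeq kit from Trizol-extracted frozen liver, per the labels' protocols. The submitters' processing notes name TopHat2 2.0.11, HTSeq 0.6.1, DESeq and mm9 without their roles. What annotation release and strand setting the counting used is not given in the sources used here. Each deposited table lists unnormalised whole-number counts for 37991 Ensembl genes, 32919 of which had a symbol by ID. Genotype and replicate number come from the sample titles.

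The fit was made with edgeR 4.0.16 under R 4.3.3: filterByExpr by genotype, TMM, a robust quasi-likelihood fit with genotype as the sole factor, and Benjamini-Hochberg adjustment over 12631 genes at 0.05. SE and 95% intervals come from each F statistic. CPM are normalised by the effective library size, and deviations and SD use log2(CPM + 0.5). Alternatives used DESeq2 1.42.0, limma 3.58.1, other filters and scalings, a replicate block and each library left out. The steps were tested on simulated data. Members and lists were chosen with earlier results of these data known. The text names Ing5, all members and, of other lists, genes with an unadjusted p under 0.05 or the 2 most abundant (for cell types mostly sums are given). Exceptions named after their values were seen are Clec4f, Vsig4, C4a, C7, Fcnb, Csf1r, Cd5l, Cd163, Ly6g, Adipoq, Plin1, Retn and Lep. Fgb, Hpx and Saa4 meet the rule above, but they were picked for the figure of profiles after their values were seen. Promoter sequences are from RefSeq (GRCm38.p6) and transcript lengths from GENCODE M21. Some items of the lists are not reported here.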

Additional observations from a re-analysis of the deposited data

How the results depend on the processing

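No complement gene passed the edgeR, DESeq2 or limma-voom test under any of the 15 alternative fits or at an adjusted p of 0.1 (0 members each time). The count over all genes was 0 with the main edgeR fit, 1 with edgeR and no low-count filter and 13 with the DESeq2 test. With a library left out it was 0 to 17: 17 without WT replicate 3, 10 without Het replicate 1 and 0 without each of the others. The median log2 fold change of the members ran from -0.16 without WT replicate 3 to 0.018 without WT replicate 2. At an unadjusted p under 0.05 the members numbered 0 with the main edgeR fit, 1 with no low-count filter, 7 without WT replicate 3 and 2 without Het replicate 1.

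Signs of many differences depended on the setting, and the cause was not tested. Most of these differences were near 0, but C3, Cfp and C6 had -0.26, 0.23 and 0.17 with all livers. The log2 fold change was -0.0075 for C1qc and 0.016 for C8a with the replicate block, -0.012 for C1qc, 0.021 for C8a, -0.054 for Cd46 and 0.0049 for Colec10 with limma-voom, and 0.0058 for C1ra, 0.017 for Colec10 and 0.0086 for Vtn with library sizes that leave out the 20 most abundant genes. With each library left out in turn it ran from -0.34 to 0.10 for C1qa, -0.23 to 0.23 for C1qb, -0.26 to 0.16 for C1qc, -0.095 to 0.039 for C1ra, -0.10 to 0.048 for C2, -0.48 to 0.018 for C3, -0.054 to 0.31 for C6, -0.28 to 0.17 for C8a, -0.19 to 0.22 for C9, -0.49 to 0.38 for Cd46, -0.076 to 0.00038 for Cfb, -0.018 to 0.35 for Cfp, -0.26 to 0.068 for Clu, -0.17 to 0.084 for Colec10, -0.049 to 0.18 for Colec11, -0.23 to 0.023 for Cpn2, -0.016 to 0.23 for Fcna, -0.11 to 0.025 for Masp2, -0.16 to 0.022 for Mbl1, -0.24 to 0.0072 for Serping1, -0.086 to 0.065 for Vtn, and from -0.12 to 0.0077 for Ing5. The other 14 members kept their sign.

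The labels do not say whether replicate numbers pair the livers. Deviations of WT and Het livers with the same number correlated at -0.025, -0.09 and 0.23 over the genes tested. WT replicate 3 and Het replicate 3 correlated best with each other, but not every liver did so with its own number. With 3 livers per group these values cannot decide whether livers of the same number are linked. The replicate block left the count of genes at 0, the count of members at 0 and the median of the members at -0.031. Depth limits Cfd, Cd46 and the receptors, which had at most 53 counts per library.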
